A study of Mus musculus with 6 samples.

Results

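Wnt and R-spondin signalling in the mouse gonad is described here through 8 genes, Wnt4, Wnt5a, Rspo1, Rspo3, Lgr5, Axin2, Lef1 and Ctnnb1. They are 8 of 18193 named genes on the array and were read from every probe set whose platform gene symbol is 1 of these names, 18 of 45101 probe sets. All samples came from C57BL/6 mice, an inbred laboratory strain, and the labels name no genotype or treatment that differs between groups. The groups were ovary and testis at 15.5 days postcoitum (fetal), ovary and testis on neonatal day 1 (neonatal), and ovary and testis at 10 weeks of age (adult). Each of the 6 groups has 1 array, so differences could not be tested and no p-value is given. RNA came from dissected gonads, and the sources used here do not say how many animals gave RNA to a sample.

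Wnt proteins are secreted ligands that bind Frizzled receptors with the co-receptors Lrp5 and Lrp6 and thereby keep beta-catenin, the product of Ctnnb1, from being degraded. Beta-catenin then enters the nucleus and acts with factors of the Tcf and Lef family, and Axin2 is a target gene whose product closes a negative feedback loop. R-spondins bind Lgr receptors and raise the number of Wnt receptors on the cell by holding off the ligases Znrf3 and Rnf43. In the mouse fetal gonad, Rspo1 and Wnt4 promote the ovarian path and oppose the testicular one.

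Signals are probe set intensities after each array was multiplied by 1 factor to a common trimmed mean. Signals at or under 75.3, the median of all scaled signals, count as at the floor and have no order among themselves. Against an array at the floor only a bound on the ratio exists, given with the words at least. Calls were made at a ratio of 4 or more in either direction, on the gene's probe set of highest mean signal, and rose and fell are used only of called genes. As a guide to noise, 2 technical SDs of a log2 ratio, taken from pairs of probe sets of the same gene, came to 0.32 between the fetal arrays, 0.56 between the neonatal arrays and 1.27 between the adult arrays. This spread covers no variation between animals.

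The arrays carried the sex marks of their labels, since the Y-linked Eif2s3y was under the floor in ovaries and between 757 and 1091 in testes. Oocyte markers summed to 704, 13924 and 9592 in fetal, neonatal and adult ovary, against 398, 321 and 1074 in the testes of those ages, and 6 of 10 Sertoli cell markers were 4-fold or more lower in ovary in both fetal and neonatal gonads. The Gapdh control, which compares the 3' with the 5' end of a transcript, had a ratio of 3.12 on the neonatal ovary array and 2.36 on the adult testis array, against 1.32 to 1.45 on the other 4. The same ratio for Actb gave another order. It was lowest on the adult testis array, at 1.81, and highest on the fetal ovary array, at 3.78, with 3.28 on the neonatal ovary array. The 9 hybridization controls averaged a deposited signal of 2503 for neonatal ovary and 2053 for adult testis, and 3409 to 3770 for the other 4 arrays.

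Wnt4, a ligand that fetal ovaries need to keep the testicular program silent, had signals of 2124 in fetal ovary and 1476 in fetal testis, 1275 in neonatal ovary and 406 in neonatal testis, and 2477 in adult ovary, with no signal above the floor in adult testis. It was thus high in all 3 ovaries and in fetal testis, lower in neonatal testis and at the floor in adult testis. In order of level, adult and fetal ovary did not differ beyond 2 technical SDs, nor did fetal testis and neonatal ovary. A further probe set of Wnt4 gave the same directions, with 880 and 749 in fetal ovary and testis, 717 and 209 in neonatal ovary and testis, and 1027 in adult ovary with the floor in adult testis.

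Wnt5a, a ligand known mainly for signalling that does not run through beta-catenin, had 1528 in fetal ovary and 1936 in fetal testis, 849 in neonatal ovary and 997 in neonatal testis, and 537 in adult ovary, with the floor in adult testis. Each later age had a lower signal in both sexes by this probe set. In adult against neonatal ovary its log2 ratio of -0.66 was close to 2 technical SDs (0.64) and was -0.25 with signals as deposited, and 2 other probe sets had ratios of 0.13 and 0.26. Over its 4 probe sets the log2 ratio of fetal ovary over fetal testis lay between -0.53 and -0.07, against 2 technical SDs of 0.32. The neonatal ratio by the probe set used was -0.23 and changed sign to 0.12 with the hybridization controls as the scale. Its other probe sets had neonatal log2 ratios of -0.91, -0.61 and -0.53, against 2 technical SDs of 0.56.

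Rspo1, the R-spondin whose loss turns XX gonads of mice towards testis, had 1616 in fetal ovary and 933 in fetal testis, 1654 in neonatal ovary and 251 in neonatal testis, and 241 in adult ovary, with the floor in adult testis. The fetal and neonatal ovaries stood above all other arrays. Neonatal testis and adult ovary did not differ beyond 2 technical SDs. Rspo1 has 1 probe set.

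Rspo3, a related R-spondin, had 961 in fetal ovary and 1056 in fetal testis, 959 in neonatal ovary and 102 in adult ovary, and did not leave the floor in neonatal and adult testis. The 3 high arrays did not differ beyond 2 technical SDs. Fetal testis was thus among the arrays with a high signal. A further probe set of Rspo3 was at the floor on all 6 arrays, so each value of Rspo3 rests on 1 probe set.

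Lgr5, a receptor for R-spondins and itself a Wnt target, was dim, with 249 in fetal ovary and 121 in fetal testis, 182 in neonatal ovary with the floor in neonatal testis, and 332 in adult ovary and 81.3 in adult testis. The ovary was the higher of each pair. No 2 neighbours in the order of its levels differed beyond 2 technical SDs, and another probe set was at the floor throughout.

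Axin2, the feedback gene often read as a gauge of beta-catenin activity, had 1255 in fetal ovary and 695 in fetal testis, 710 in neonatal ovary and 213 in neonatal testis, and 673 in adult ovary and 155 in adult testis. It was highest in fetal ovary, and neonatal ovary, fetal testis and adult ovary formed a middle group within 2 technical SDs. Both older testes lay below that group. A further probe set was at the floor on all arrays.

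Lef1, a DNA-binding partner of beta-catenin, ran the other way in adults. Its signals were 145 in fetal ovary and 91.4 in fetal testis, 84.2 in neonatal ovary and 83.1 in neonatal testis, and the floor in adult ovary with 347 in adult testis. Adult testis was the only array with a clear Lef1 signal above fetal ovary, and it was also the only array on which another Lef1 probe set left the floor, at 112.

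Ctnnb1, beta-catenin itself, had 8889 in fetal ovary and 8884 in fetal testis, 8566 in neonatal ovary and 9021 in neonatal testis, and 7533 in adult ovary and 2888 in adult testis. The first 5 of these arrays did not differ beyond 2 technical SDs, and adult testis lay below them. All 3 of its probe sets were lowest in adult testis, but with the hybridization controls as the scale the log2 ratio of adult ovary over adult testis was 0.60, within 2 technical SDs. The dimmest probe set also had a lower signal in neonatal ovary, 379, against 831 in fetal ovary and 740 in neonatal testis.

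**Figure D1:**
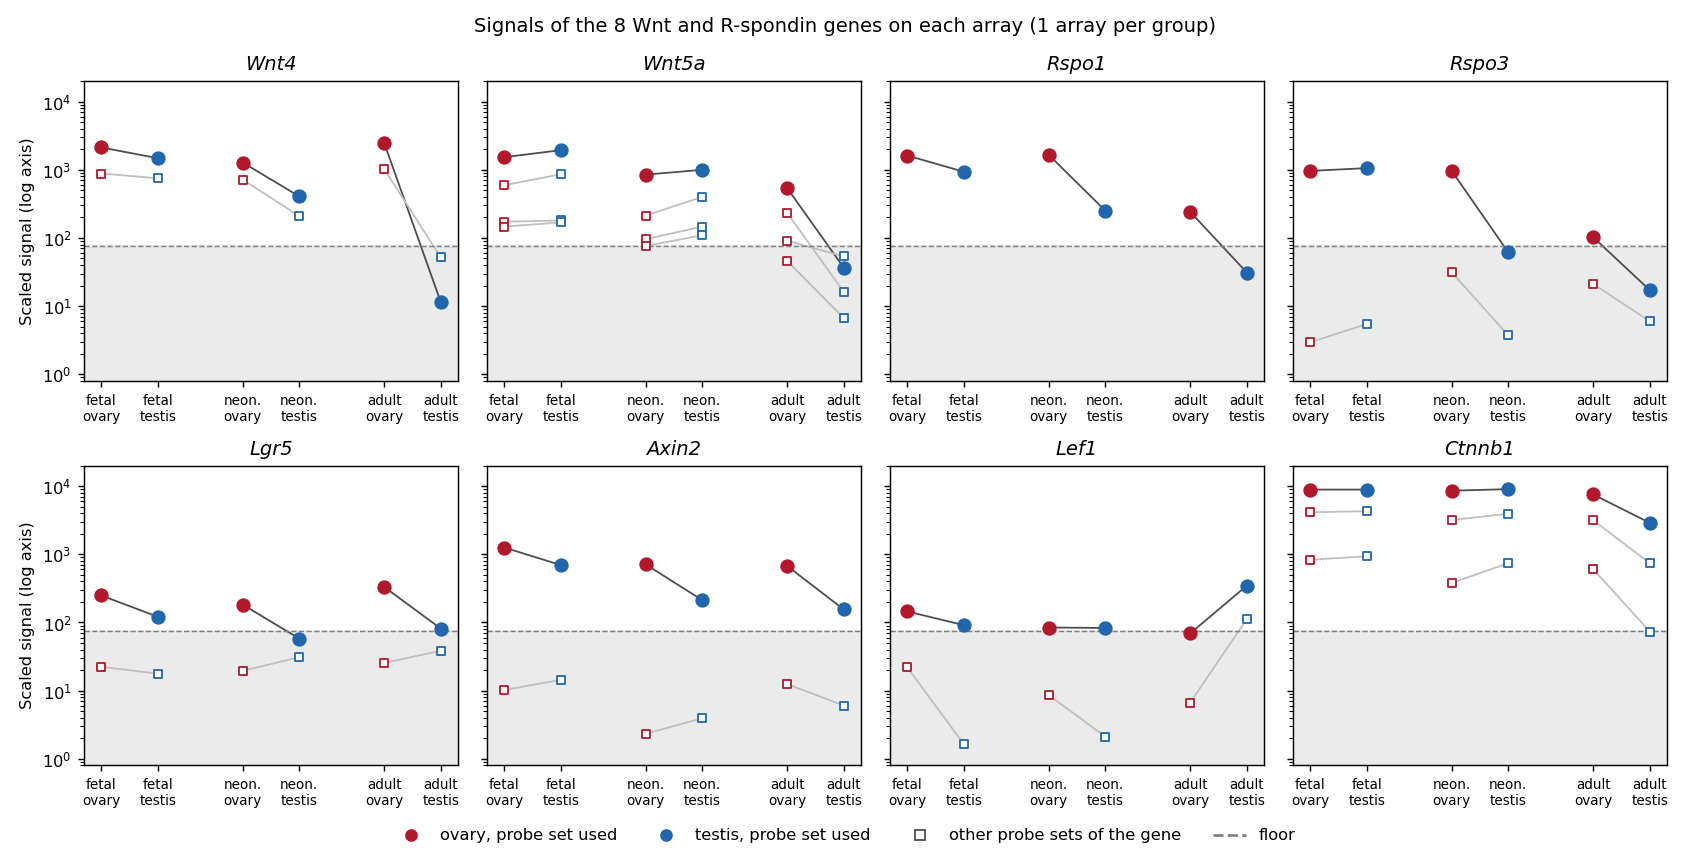
Scaled signal on a log axis for each of the 8 genes, with 1 point per probe set and array; filled circles are the probe set used for the gene, open squares the other probe sets, red is ovary and blue is testis, and the grey area lies under the floor of 75.3. Wnt4, Rspo1 and Axin2 are lower in neonatal testis than in fetal testis, Rspo3 drops under the floor there, and Lef1 alone is highest in adult testis, at 347.

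Wnt4, Rspo1 and Axin2 were lower together in neonatal testis, so the 250 bases before their annotated starts are shown, with those of Lef1, which ran the other way in adults. Sequences are from RefSeq, build GRCm38.p6, all on the plus strand. Promoters were found for 5 of the 8 genes and not for Wnt5a, Rspo3 and Lgr5. Capitals mark matches to the core that Tcf and Lef factors bind, written CTTTGAA or CTTTGAT or CTTTGTA or CTTTGTT and searched on both strands.
Wnt4, chr4:137277385-137277634: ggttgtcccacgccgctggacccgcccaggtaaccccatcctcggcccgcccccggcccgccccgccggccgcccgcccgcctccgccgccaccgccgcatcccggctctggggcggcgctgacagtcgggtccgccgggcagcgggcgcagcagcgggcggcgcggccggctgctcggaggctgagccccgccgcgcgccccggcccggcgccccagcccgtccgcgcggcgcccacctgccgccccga
Rspo1, chr4:124986180-124986429: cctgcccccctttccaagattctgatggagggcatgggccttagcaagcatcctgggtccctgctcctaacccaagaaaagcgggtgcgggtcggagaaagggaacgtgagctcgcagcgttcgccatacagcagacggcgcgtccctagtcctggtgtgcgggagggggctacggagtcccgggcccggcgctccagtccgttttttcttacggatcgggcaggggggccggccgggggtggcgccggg
Axin2, chr11:108920099-108920348: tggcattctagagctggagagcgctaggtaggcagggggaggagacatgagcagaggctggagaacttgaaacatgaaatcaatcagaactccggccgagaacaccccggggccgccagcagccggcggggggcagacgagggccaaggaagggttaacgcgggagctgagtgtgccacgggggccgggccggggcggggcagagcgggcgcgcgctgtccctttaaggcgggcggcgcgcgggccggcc
Lef1, first start, chr3:131110047-131110296: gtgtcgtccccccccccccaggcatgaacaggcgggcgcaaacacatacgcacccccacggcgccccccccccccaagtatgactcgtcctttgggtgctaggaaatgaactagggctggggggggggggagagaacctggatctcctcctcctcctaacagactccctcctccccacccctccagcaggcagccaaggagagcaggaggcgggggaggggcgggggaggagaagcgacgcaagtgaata
Lef1, last start, chr3:131156044-131156293: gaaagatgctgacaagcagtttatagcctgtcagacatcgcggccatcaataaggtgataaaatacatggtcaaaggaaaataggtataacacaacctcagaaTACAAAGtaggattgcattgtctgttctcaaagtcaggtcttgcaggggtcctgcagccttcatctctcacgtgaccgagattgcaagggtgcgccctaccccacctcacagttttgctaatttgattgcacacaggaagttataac

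Only the window before the last annotated Lef1 start held a match, CTTTGTA on the minus strand, which was 1 of 9 windows for the 5 genes. Of 32851 promoter windows of this length in the table, 14.8% held at least 1 of the 4 motifs. The windows of Wnt4, Axin2 and Rspo1 were rich in G and C, at 85.2%, 69.2% and 66.8%, as was the first Lef1 window at 66.4%, and the last Lef1 window had 44.8%. No match says only that these letters are not in this window.

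In fetal gonads, 5 of the 8 genes were higher in ovary than in testis by more than 2 technical SDs, as were 14.5% of all genes, and Wnt5a was lower by more than that, as were 14.4%. None reached 4-fold, where 0.278% of the 12595 genes with a signal above the floor on either array were higher by 4-fold or more and 0.635% lower. Lgr5 was 2.06-fold higher, the only member past 2-fold, where 1.68% of all genes were that much higher and 2.59% lower. Axin2 was 1.81-fold, Rspo1 1.73-fold, Lef1 1.59-fold and Wnt4 1.44-fold higher in ovary, though the other Wnt4 probe set, at a log2 ratio of 0.23, was within 2 technical SDs. These 5 genes took places 196 (Lgr5), 315 (Axin2), 372 (Rspo1), 489 (Lef1) and 809 (Wnt4) among the 12595 genes ordered from the highest ratio. Rspo3 and Ctnnb1 did not differ beyond 2 technical SDs, with log2 ratios of -0.14 and 0.00. The median log2 ratio of the 8 genes was 0.60, against 0.02 for all genes.

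The other genes of the pathway came from a list of 93, of which 91 were measured and 77 exceeded the floor on some array. Counts of called genes are out of these 91. Depending on the comparison, 68 to 74 of them were above the floor on either array, and only such genes can be called. The shares of all genes given for each comparison are over genes above the floor on either array. Kremen2 and Tcf7 were not analysed here. In fetal gonads 1 of the 91 was called higher in ovary and 1 lower, with a median log2 ratio of 0.15. Tnfrsf19, a receptor of the TNF family that Wnt signalling induces in several tissues, had 2179 in fetal ovary and 381 in fetal testis, a ratio of 5.73, while another of its probe sets had a log2 ratio of 0.64. Sostdc1, a secreted antagonist of BMP and Wnt signalling, had 132 in fetal ovary and 806 in fetal testis and was 6.13-fold lower. By role, all 10 measured common Wnt targets outside the members were above 0, with a median log2 ratio of 0.99. The 8 ligands above the floor had a median of 0.05, and the 14 receptors above it 0.13. The 17 cytoplasmic mediators above it had a median of 0.04, so the common targets had the highest median of the 8 roles listed.

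Between neonatal ovary and neonatal testis the difference was larger. Rspo1 had 1654 in neonatal ovary and 251 in neonatal testis, a ratio of 6.59. Rspo3 had 959 in neonatal ovary against the floor in neonatal testis, at least 12.7-fold higher and at place 31 of 13119 genes. These were 2 of the 8 members, where 1.94% of all genes were higher by 4-fold or more and 1.33% lower. Wnt4 was 3.14-fold and Axin2 3.34-fold higher in ovary, and Lgr5 at least 2.42-fold, so 5 of 8 members passed 2-fold, where 8.04% of all genes were that much higher and 5.27% lower. Lef1 and Ctnnb1 had log2 ratios of 0.02 and -0.07, both under 2 technical SDs and both changing sign with the scaling. The median over the members was 1.46, against 0.07 for all genes.

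Of the other pathway genes, 7 of 91 were called with the higher signal in neonatal ovary and none with the higher signal in neonatal testis. Tnfrsf19 led with 2593 in neonatal ovary and 110 in neonatal testis, a ratio of 23.6, though another probe set had a log2 ratio of 0.03. Apcdd1, a membrane inhibitor of Wnt signalling, had 2496 against 434 in testis, and 4 further probe sets had log2 ratios between 1.49 and 2.44. Wnt11, a ligand, had 610 against 109. Dkk2, which binds the Lrp co-receptors, and Rspo2, a further R-spondin, did not leave the floor in testis and were higher in ovary by at least 5.47-fold and 5.43-fold. Sfrp2 and Nkd1 completed the 7. The 3 called inhibitors, Apcdd1, Dkk2 and Sfrp2, stood with the 2 R-spondins among the members and Rspo2 on the side of the ovary. Of the 11 inhibitors above the floor, 9 had the higher signal in ovary and 2 in testis. Sostdc1 was on the side of the testis, with 81.9 in neonatal ovary and 306 in neonatal testis. It was short of 4-fold, and quantile normalization called it lower in ovary. The median of the 9 targets above the floor was 1.82, and that of the 10 nuclear mediators above it -0.04.

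Markers of the surface, duct and oviduct epithelium also differed between neonatal ovary and neonatal testis. Of 10 measured markers, 9 were 4-fold or more higher in neonatal ovary and 1, Lhx9, was lower. Their summed signal was 24011 in neonatal ovary and 5305 in neonatal testis, against 10509 and 9551 in fetal ovary and testis. None of the 10 was at the floor on the neonatal arrays, and Ovgp1, a glycoprotein of the oviduct, had 1961 in neonatal ovary and 75.6 in neonatal testis. Oocyte markers were 4-fold or more higher for 7 of 8. The part of either list in the R-spondin difference was not tested. In bulk samples such as these, fewer cells of a type and less RNA per cell cannot be told apart. With the arrays scaled to the hybridization controls, Wnt4 and Axin2 also passed 4-fold, and with the mean of all probe sets or a floor at the 75th percentile only Rspo1 did.

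**Figure D2:**
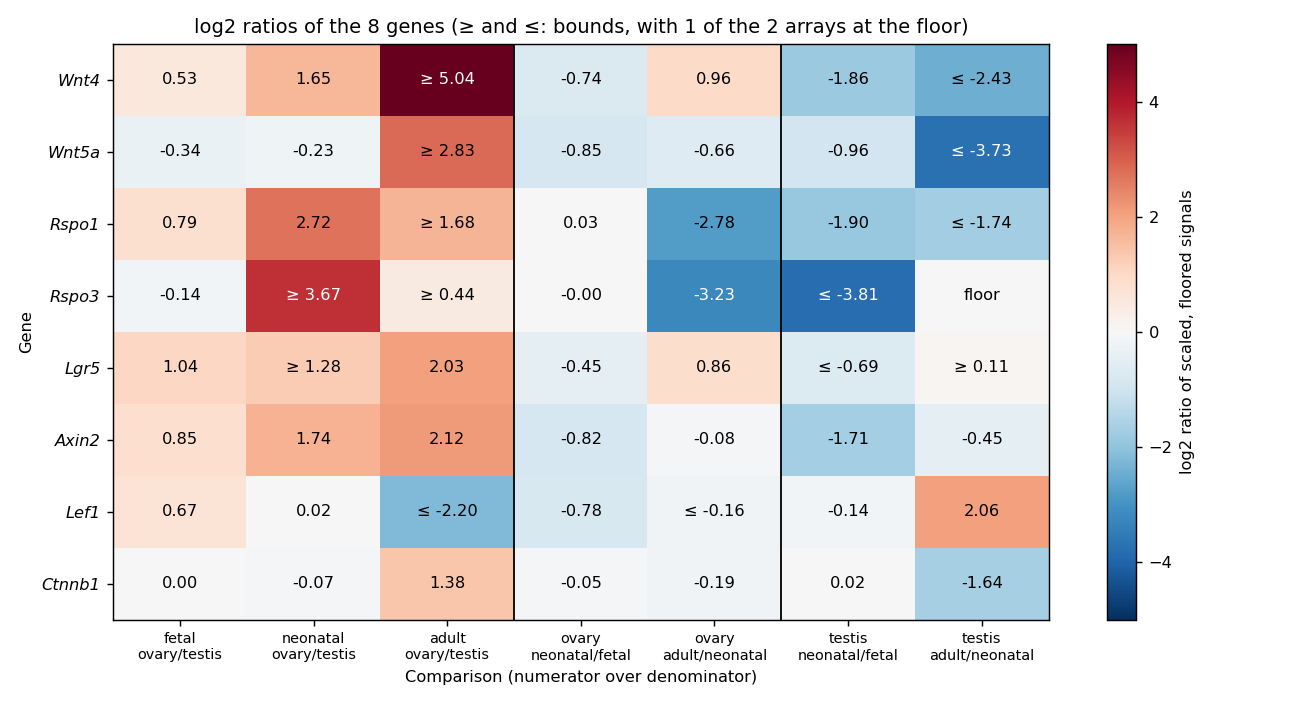
Heat map of log2 ratios of scaled, floored signals for the 8 genes (rows) in the 7 comparisons (columns); each number is the ratio of 1 array to 1 other array, and the number is a bound where either array lay at the floor. The neonatal sex difference of Rspo3 (at least 3.67) and the drop in neonatal testis (at most -3.81) stand out against near-level fetal values.

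The testis was then compared between these ages. In neonatal testis against fetal testis, Rspo3 was at the floor, against 1056 in fetal testis, at least 14.0-fold lower. Only 2 of 12669 genes had a lower ratio, and it was the 1 member called, where 0.631% of all genes were lower by 4-fold or more and 0.513% higher. Rspo1 was 3.72-fold, Wnt4 3.63-fold and Axin2 3.27-fold lower in neonatal testis, at places 91, 95 and 131 from the lowest. With Rspo3 these are 4 of 8 members past 2-fold, where 4.92% of all genes were that much lower and 3.29% higher. Wnt5a was 1.94-fold lower, and Lef1 and Ctnnb1 had log2 ratios of -0.14 and 0.02, both within 2 technical SDs.

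In neonatal ovary against fetal ovary no member was called, where 1.05% of all genes were higher by 4-fold or more and 0.321% lower. Rspo1 and Rspo3 had log2 ratios of 0.03 and -0.00, within 2 technical SDs, and of -0.43 and -0.47 with signals as deposited. Wnt5a, Axin2, Lef1 and Wnt4 had log2 ratios of -0.85, -0.82, -0.78 and -0.74, and of -1.31, -1.29, -1.09 and -1.20 with signals as deposited. Another Wnt5a probe set was 2.79-fold lower. Axin2 and Wnt4 thus had lower neonatal than fetal signals in both sexes by the probe sets used. In ovary the other Wnt4 probe set had a log2 ratio of -0.30, within 2 technical SDs (0.56). The sex difference of Rspo3 grew by 3.81 on the log2 scale from fetal to neonatal gonads, at place 22 of 13506 genes, that of Rspo1 by 1.93, that of Wnt4 by 1.13 and that of Axin2 by 0.89. For Rspo3 the growth is a lower bound, because neonatal testis was at the floor.

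Among other pathway genes, Dkk2 was the 1 of 91 called in neonatal testis against fetal testis, at the floor against 345 and at least 4.58-fold lower. The 9 targets above the floor had a median log2 ratio of -1.19 and the 11 inhibitors above it -0.79, against -0.06 for all genes. In neonatal ovary against fetal ovary, 2 were called, Sfrp4 at 906 against 187 and Rspo2 at 409 against 96.9, both higher. Sfrp4 is a secreted Frizzled-related inhibitor known from luteal cells, and Rspo2 is known from growing oocytes. Oocyte markers were higher for 7 of 8 there, with sums of 13924 in neonatal ovary and 704 in fetal ovary. Surface, duct and oviduct markers had a median log2 ratio of 1.13 in that comparison, with 2 of 10 called higher. The part of either list was not tested. In testis, surface, duct and oviduct markers had a median log2 ratio of -1.35 and Sertoli cell markers one of 0.86, with 1 of 10 markers called in each list. Whether either has a part in the lower signals was not tested. When the arrays were left as deposited or scaled to the hybridization controls, Wnt4 and Rspo1 passed 4-fold as well, and the mean of both Rspo3 probe sets gave a log2 ratio of -1.91, short of a call.

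In adult ovary against adult testis, 5 of 8 members were called, 4 higher and 1 lower, where 15.1% of all 14349 genes were higher by 4-fold or more and 13.8% lower. Wnt4 was at least 32.9-fold higher, at place 33 from the highest, and its further probe set at least 13.6-fold. Wnt5a was at least 7.13-fold, Axin2 4.34-fold and Lgr5 4.09-fold higher in ovary. Lef1 was at the floor in adult ovary, against 347 in adult testis, and was at least 4.60-fold lower. Rspo1 was at least 3.21-fold and Ctnnb1 2.61-fold higher, and Rspo3 at least 1.36-fold. The other Ctnnb1 probe sets were 4.27-fold and at least 8.04-fold higher, so its call depends on the probe set. The median over the members was 1.86, against 0.35 for all genes.

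Of the other pathway genes, 27 of 91 were called with the higher signal in adult ovary and none with the higher signal in adult testis. The split was 18 higher and 3 lower when the arrays were scaled to the hybridization controls. It was 25 and 1 with quantile normalization and 27 and 1 with signals as deposited. Lrp5, with 77.0 in adult ovary and 307 in adult testis, was just short of 4-fold and was called higher in testis under these last 2 settings. Sfrp4 had 11851 in adult ovary and 158 in adult testis, a ratio of 75.1. Wls, the carrier that brings Wnt proteins to the cell surface, had 1216 in ovary against the floor, at least 16.2-fold higher. Sfrp1, a related inhibitor, and Tle2, a co-repressor that binds Tcf factors, were 12.2-fold and 11.7-fold higher, though 1 of the other Sfrp1 probe sets had a log2 ratio of -1.27. Dkk3 was at least 11.4-fold higher. Of 16 measured receptors 8 were called higher than in testis, 6 of them Frizzled genes, with Lrp6 and Ryk. Other probe sets of Fzd3, Fzd6 and Ryk reached down to log2 ratios of -0.08, 0.21 and 0.03. Also among the 27, other probe sets of Gsk3b ran from -4.60 to 0.92 and those of Csnk1d from -2.34 to 2.22. Those of Tcf7l2 ran from 0.15 to 0.52. The 10 nuclear mediators above the floor were all above 0, with a median of 1.56.

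The adult testis array differed from the others in its cell markers. All 6 spermatid markers were above the floor there, with a summed signal of 54982, and all 6 were at the floor on the other 5 arrays. The interstitial and stroma markers summed to 1964 there, against 17013 in adult ovary and 24682 to 30688 on the fetal and neonatal arrays, with 8 of 9 above the floor on each. The share of these cells in the difference was not tested. Scaling to the hybridization controls moved the median log2 ratio of all genes above the floor by -0.80 in this comparison, by 1.12 in adult against neonatal testis and by 0.34 in neonatal ovary against testis. Under it Axin2 and Lgr5 had log2 ratios of 1.34 and 1.25 in adult ovary over testis and were not called, and quantile normalization also left both short of 4-fold. With the floor at the 75th percentile or the mean of all probe sets, Wnt5a and Lef1 were not called either.

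**Figure D3:**
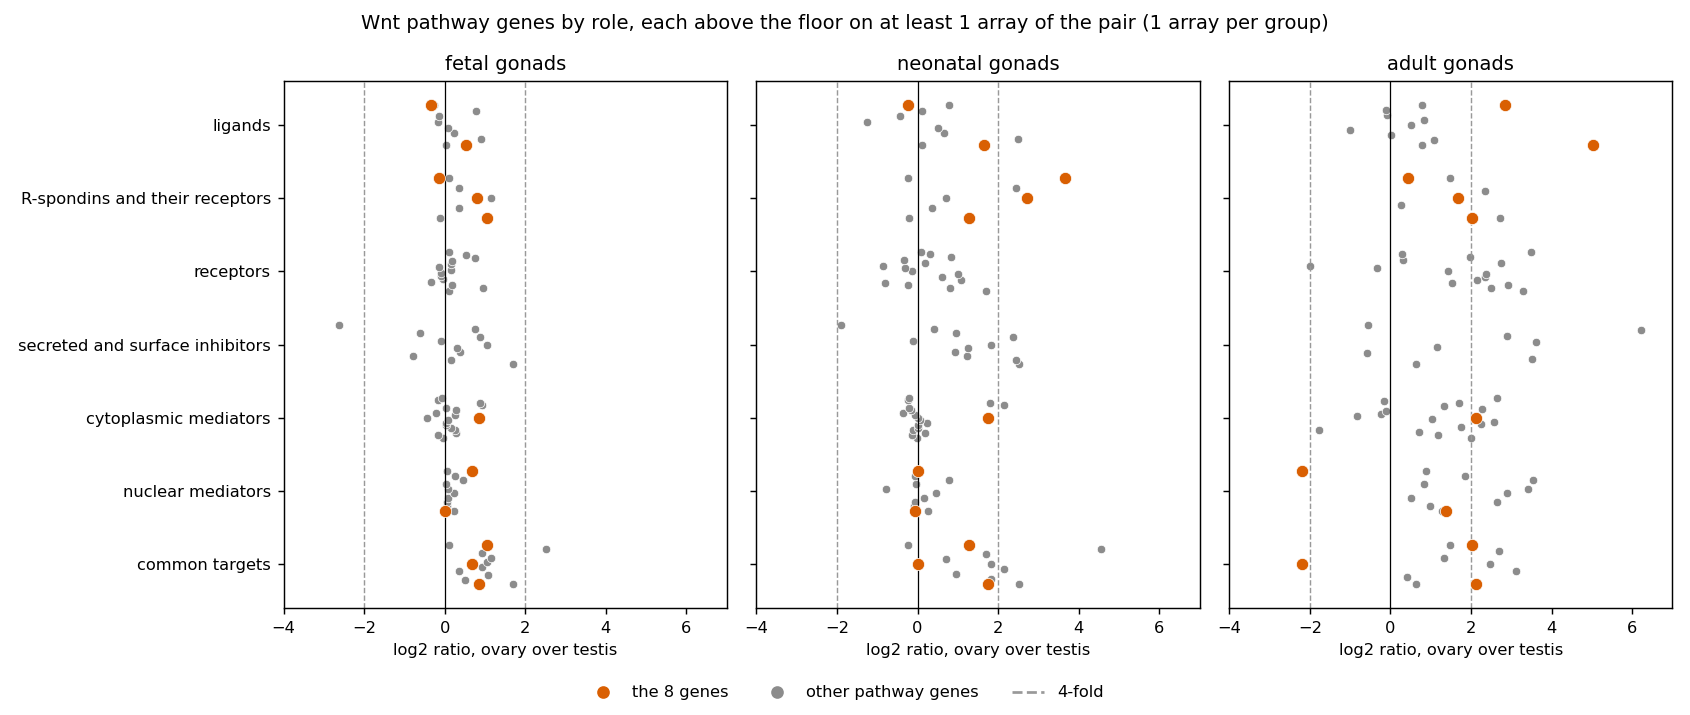
log2 ratio of ovary over testis (horizontal axis) for genes that leave the floor on either array of the pair, by role in the pathway (vertical axis) at the 3 ages; orange points are the 8 genes and grey points the other pathway genes, which may stand under more than 1 role, and dashed lines mark 4-fold. Fetal points lie within 4-fold except Tnfrsf19 and Sostdc1, the neonatal R-spondins lie to the right, and in adults Lef1 is the only point of the nuclear mediators left of 0.

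In adult testis against neonatal testis, 3 of the 7 members that were above the floor in either were called, where 13.7% of all 14198 genes were higher by 4-fold or more and 13.2% lower. Wnt5a fell to the floor in adult testis, against 997 in neonatal testis, at least 13.2-fold lower, and Wnt4 fell at least 5.39-fold, against 406. Lef1 rose to 347, against 83.1, a ratio of 4.17. Ctnnb1 was 3.12-fold lower and Rspo1 at least 3.33-fold lower, so 5 members passed 2-fold, although Ctnnb1 had a log2 ratio of -0.54 with the hybridization controls as the scale. At that limit 22.6% of all genes were higher and 32.5% lower. With the floor at the 75th percentile none of the 3 calls was made. Axin2 had a log2 ratio of -0.45, which turned to 0.64 with scaling to the hybridization controls, and 2 technical SDs were 1.14 here. Rspo3 was at the floor on both arrays and has no ratio.

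Of the other pathway genes, 22 of 91 fell and 1 rose in adult testis, with a median log2 ratio of -1.31 against -0.30 for all genes. With the hybridization controls the split was 9 lower and 5 higher. Sfrp1 had 118 in adult and 3792 in neonatal testis and was 32.2-fold lower, though the log2 ratios of its other probe sets ran from -2.66 to 0.13. In adult testis Fzd2, Ryk and Wls dropped under the floor and were lower by at least 13.3-fold, 13.2-fold and 12.9-fold. Tcf7l2, a nuclear partner of beta-catenin, was 10.8-fold lower by the probe set used and had a log2 ratio of -0.36 by another. Lrp5 was the gene that rose, to 307, against the floor, at least 4.08-fold. All 10 nuclear mediators above the floor outside the members were below 0, with a median of -1.94, and among the members Ctnnb1 was below 0 and Lef1 above it. Interstitial and stroma markers fell for 8 of 9, with a median of -3.71, and their part in these values was not tested.

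In adult ovary against neonatal ovary Rspo1 and Rspo3 fell and Wnt4 did not, and Rspo2, outside the 8 genes, had 383 in adult ovary and 409 in neonatal ovary. Rspo3 fell to 102 in adult ovary, against 959 in neonatal ovary, a 9.38-fold lower signal, and Rspo1 fell to 241, against 1654, a 6.85-fold lower one. These were the 2 members called, where 2.04% of all 13261 genes were higher by 4-fold or more and 2.59% lower, and they took places 73 and 124 from the lowest. Wnt4 was 1.94-fold and Lgr5 1.82-fold higher in adult ovary. The other Wnt4 probe set had a log2 ratio of 0.52, within 2 technical SDs (0.64). Axin2 had a log2 ratio of -0.08, within 2 technical SDs, and 0.34 with signals as deposited. Rspo3 was not called with the higher floor or with the mean of its probe sets. Rspo1 and Rspo3 thus fell, and the Axin2 ratio stayed within its technical spread. The 10 common targets outside the members had a median log2 ratio of -1.53, with 8 below 0 and 2 above it. The median of all genes was -0.04.

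Of the other pathway genes, 2 of 91 rose and 6 fell in adult ovary. Sfrp4 was 13.1-fold higher, and Myc, a growth regulator and common Wnt target, was at least 5.60-fold higher, with 421 against the floor. Apcdd1 was 10.2-fold lower, with 246 against 2496, and its 4 other probe sets above the floor on either array were lower too. Tnfrsf19, Wnt11 and Nkd2 were lower by 5.32-fold, 4.99-fold and 4.05-fold, though another Tnfrsf19 probe set had a log2 ratio of -0.03. For Nkd2, the 3 other probe sets above the floor on either array had log2 ratios from -1.35 to -0.10. Dkk2 was at least 5.47-fold lower, and Notum, an enzyme that inactivates Wnt proteins, fell to the floor. Surface, duct and oviduct markers were lower for 9 of 10, with sums of 4324 in adult ovary and 24011 in neonatal ovary, and 2 at the floor in adult ovary. Granulosa markers were higher for 7 of 10, with sums of 33087 in adult ovary and 6822 in neonatal ovary. Leydig and theca markers were higher for 5 of 5, with sums of 30589 and 2291 in adult and neonatal ovary, and germ cell markers were lower for 4 of 6, with a median log2 ratio of -2.50. The part of any of these lists in the values above was not tested.

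**Figure D4:**
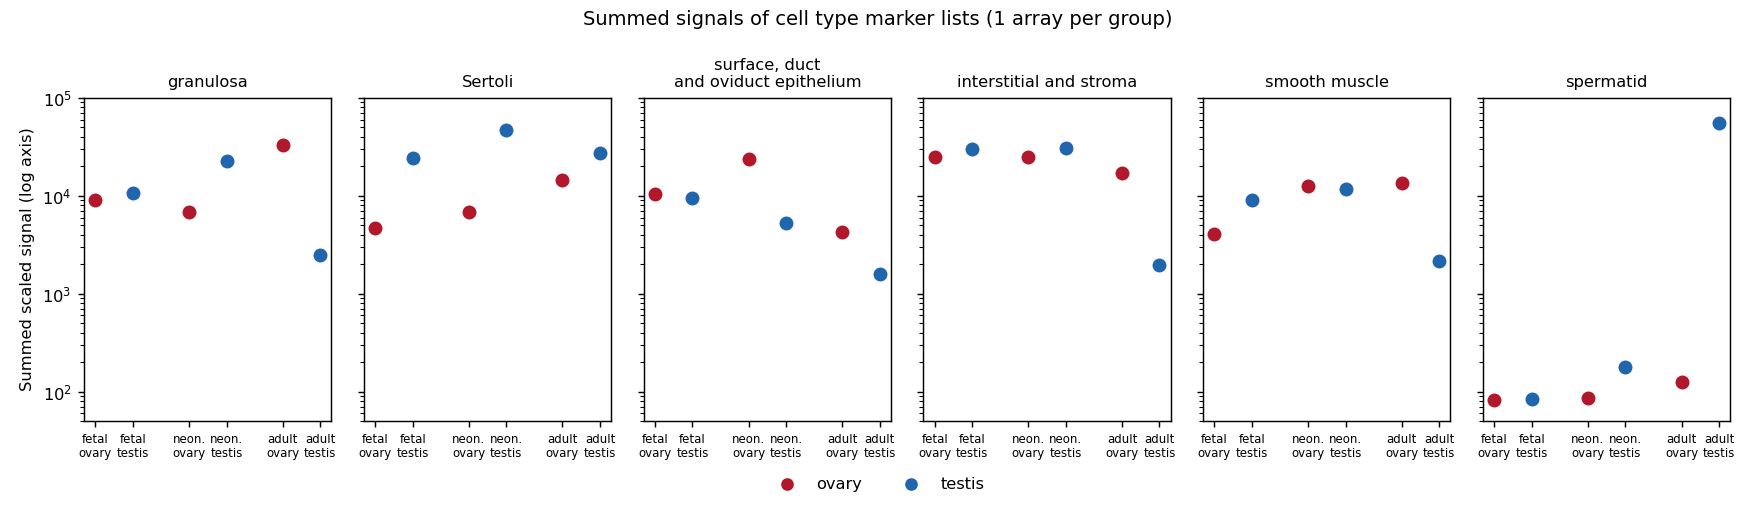
Summed scaled signal on a log axis for 6 lists of cell type markers, with 1 point per array, red for ovary and blue for testis. The surface, duct and oviduct list is highest in neonatal ovary (24011), the granulosa list in adult ovary (33087), and the spermatid list stands apart in adult testis (54982).

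Genes with the most similar profile were sought over the 6 arrays among 15274 other genes. The measure was the root mean square difference of log2 floored signals after centring each gene, so 0 is an identical profile. For Rspo3 they were Hoxa5 at 0.20, Cdh16 at 0.37 and Stmn2 at 0.41. Cdh16, a cadherin known from tubules of the kidney and of the mesonephros, had 898 in fetal ovary and 583 in fetal testis and 1180 in neonatal ovary, with the floor on the other 3 arrays. Hoxa5, a Hox transcription factor gene, had 1011 in fetal ovary, 876 in fetal testis and 753 in neonatal ovary, with the floor on the others. All 3 were chosen for a profile like that of Rspo3, so their high signal on the same 3 arrays follows from the choice.

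For Rspo1 the nearest genes were Myrf (0.21), Npnt (0.24) and Bnc1 (0.29). Npnt codes for an extracellular matrix ligand of integrins and Bnc1 for a zinc finger protein known from epithelia and germ cells. For Wnt4 they were Arhgap28 (0.41), Lhfpl2 (0.46) and Sema3d (0.48). For Axin2 they were Cd83 (0.19), Ank3 (0.20) and Sned1 (0.28). Wnt5a had 2700081O15Rik (0.15), Ldb2 (0.18) and Fzd2 (0.19), the last a Frizzled receptor. Fzd2 had 1648 and 1463 in fetal ovary and testis, 852 and 1000 in neonatal ovary and testis, and 424 in adult ovary with the floor in adult testis. For the dim Lgr5 the nearest were D630039A03Rik (0.20), Rgl3 (0.24) and Cdc14a (0.27), and for Lef1 they were Cbwd1 (0.10), Rspry1 (0.11) and Epha6 (0.13). Ctnnb1 spanned 3.12-fold over the arrays, under the 4-fold set for this search. By the same measure, the closest pairs among the members were Lgr5 with Axin2 (0.61) and Rspo1 with Rspo3 (0.66).

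**Figure D5:**
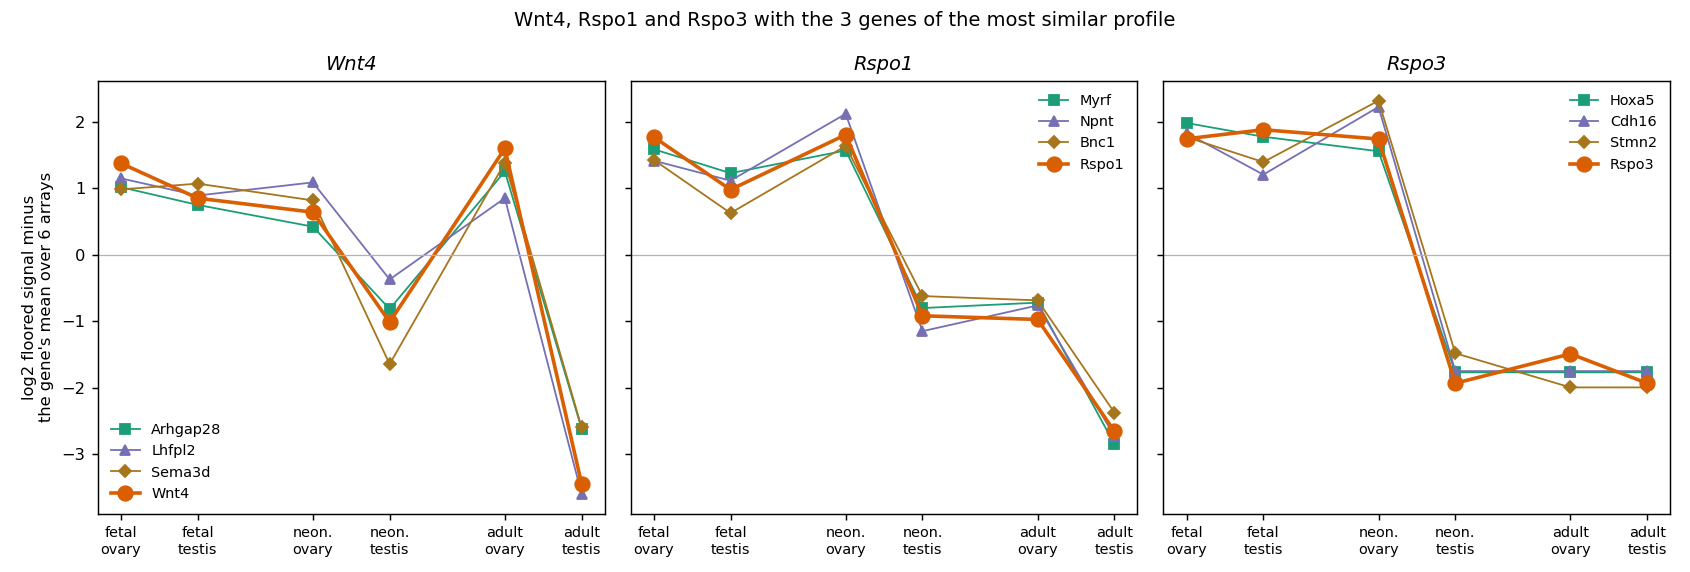
log2 floored signal minus the gene's own mean over the 6 arrays (vertical axis) on each array (horizontal axis) for Wnt4, Rspo1 and Rspo3 in orange and their 3 nearest genes in other colours. The neighbours were chosen for similar profiles, so the likeness of the lines follows from the choice. Each orange line keeps within a root mean square distance of 0.48 of its neighbours. For Rspo3 all lines drop between neonatal ovary and neonatal testis.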

How the data were processed

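The deposited table holds 1 intensity per probe set for each of 6 Affymetrix arrays on a linear scale. The submitters' processing notes name GCOS version 1 without its role, and background correction, probe summary and scaling are not stated in the sources at hand. Each array was multiplied by 1 factor, from 0.913 to 1.26, to a common mean trimmed by 2% at each end, and signals under 75.3, the median of all scaled signals, were raised to it. Gene symbols came from the platform annotation. Only the 34945 probe sets with 1 symbol were used, the 8 members were also found in the reference gene table, and each gene was read by its probe set of highest mean signal. With 1 array per group there is no test, and a ratio of 4 or more was called in each of 7 comparisons. The percentages of all genes are over genes that exceeded the floor on either array of the pair. With so few arrays the precision is limited.

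The members, the pathway and marker lists and the comparisons were chosen with earlier results of these data known. Named genes are the members with every probe set, up to 5 other pathway genes with the largest ratio per comparison and direction, the 3 nearest genes of each member that spans 4-fold, and marker genes. Genes named beyond this rule were chosen after their values were seen. As alternatives, arrays were left unscaled, scaled to 9 hybridization controls or quantile normalized, and the floor was set at the 25th percentile, at the 75th, or replaced by adding 16. Probe sets were averaged per gene, those open to cross-hybridization were dropped, and 2-fold was used as the limit. The steps were checked on simulated arrays with known changes. Python 3.11.15 with numpy 2.4.6, pandas 2.3.3, scipy 1.17.1 and matplotlib 3.10.9 was used.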

Additional observations from a re-analysis of the deposited data

Results flagged for a closer look

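Opposite directions under the same contrast, both beyond 2 technical SDs by the probe set used, marked 3 results. The difference between the directions was not tested in any. Wnt4 was higher in adult than in neonatal ovary, with a log2 ratio of 0.96, and lower in adult than in neonatal testis, with at most -2.43. The other Wnt4 probe set had 0.52 in adult over neonatal ovary, within 2 technical SDs (0.64). Wnt5a was lower in fetal ovary than in fetal testis, with a log2 ratio of -0.34, close to 2 technical SDs (0.32), and higher in the ovary of adults, with at least 2.83. Lef1 had a log2 ratio of ovary over testis of 0.67 in fetal gonads and of at most -2.20 in adult gonads.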

How the results depend on the processing

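No paired analysis was possible because each group has 1 array. Over 9 alternatives, 81 of 126 counts of called genes stayed within 1.5 times the main count. None of the 41 called log2 ratios took the opposite sign. Those of Lgr5 in adult ovary over testis and of Lrp5 in adult over neonatal testis went to 0 under some settings. Of the 41, 7 stayed past 4-fold in every setting that gave them. The cause was not tested for any change except the 2-fold limit and the higher floor, which by construction give more and fewer calls.

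Counts are given for the members and then for the other pathway genes. In fetal ovary against testis they were 0 and 2, and became 1 and 6 at 2-fold. The pathway count was 1 with the floor at the 75th percentile and 1 with the mean of all probe sets. In neonatal ovary against testis they were 2 and 7. They became 5 and 18 at 2-fold, 1 and 3 with the higher floor and 1 and 3 with the mean of probe sets, and the hybridization controls gave 4 members. In adult ovary against testis they were 5 and 27. They became 1 and 6 with the higher floor and 2 and 10 with the mean of probe sets. Quantile normalization and the hybridization controls each gave 3 members, and 2-fold gave 44 pathway genes.

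In neonatal against fetal ovary the counts were 0 and 2. The pathway count was 0 with signals as deposited, 0 with the higher floor, 1 with 16 added and no floor, 1 with the mean of probe sets and 7 at 2-fold. In adult against neonatal ovary they were 2 and 8. They became 1 and 3 with the higher floor, the mean of probe sets gave 1 member, signals as deposited gave 4 pathway genes and 2-fold gave 20. In neonatal against fetal testis they were 1 and 1. They became 0 and 0 with the higher floor, 3 and 3 with the hybridization controls and 4 and 16 at 2-fold. Signals as deposited gave 3 members and the mean of probe sets 0. The pathway count was 3 with the floor at the 25th percentile and 2 with 16 added. In adult against neonatal testis they were 3 and 23. They became 0 and 5 with the higher floor, 1 and 11 with the mean of probe sets and 5 and 46 at 2-fold, and the hybridization controls gave 14 pathway genes.

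Dim probe sets limit the rest, since 3 of 18 member probe sets were at the floor on all arrays and 3 were above it on all.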

Other observations

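The following genes act as feedback regulators of the pathway and were chosen after their values were seen. Notum had 623 in fetal ovary and 299.5 in fetal testis, 303 in neonatal ovary and 85.8 in neonatal testis, with neither adult gonad above the floor. Sp5, a transcription factor gene that Wnt signalling induces, had 326 and 171 in fetal ovary and testis and 243 in neonatal ovary, and the other 3 arrays were at the floor. Nkd1, an inhibitor that binds Dishevelled, had 645 and 339 in fetal ovary and testis, 490 and 111 in neonatal ovary and testis, and 190 in adult ovary with the floor in adult testis. These 3 were dimmer in adult ovary than in neonatal ovary, and Axin2 had 673 and 710 in these 2. Znrf3, a ligase that R-spondins hold off, had 406 and 374 in the fetal, 277 and 327 in the neonatal and 507 and 181 in the adult ovary and testis, with a neonatal difference inside 2 technical SDs.

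Wnt6, also a ligand and also chosen after its values were seen, was highest in neonatal testis, at 2238, against 938 in neonatal ovary, and stood at 1250 and 1183 in fetal ovary and testis and at 561 and 312 in adult ovary and testis.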
